A study of Bos taurus with 40 samples.

Results

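The 10 genes described here encode transporters of cationic and large neutral amino acids: 8 members of the SLC7 and SLC3 families (SLC7A1, SLC7A2, SLC7A4, SLC7A5, SLC7A7, SLC7A8, SLC7A11 and SLC3A2), together with SLC6A14 and SLC43A2. They were taken by symbol, as a list of names, from the 32671 genes counted in bovine endometrium, the mucosa of the uterus, and all 10 were found. The tissue came from both uterine horns of synchronized heifers (Bos taurus). One horn of each heifer was next to the ovary with the corpus luteum (ipsilateral), and its partner was on the opposite side (contralateral). Tissue was taken on day 5, 7, 13 or 16 after estrus, and 5 libraries were made for each horn on each day, 40 in 8 groups. By the labels the groups differ in day and horn, and no other treatment, strain or genotype is given. The sample labels count these days as days of pregnancy, and whether an embryo was present is not stated in the sources used here, so the groups are called by day and horn only. The horns were compared to ask whether the lining next to the corpus luteum differs from the other side in ways that could bear on growth of the conceptus.

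Amino acid transporters of this kind work as exchangers, uniporters or ion-coupled pumps. The cationic amino acid transporters (SLC7A1 and SLC7A2) carry arginine, lysine and ornithine across the membrane down the membrane potential. The light chains SLC7A5, SLC7A7, SLC7A8 and SLC7A11 carry amino acids only when bound to the heavy chain SLC3A2, a glycoprotein that brings them to the cell surface. SLC6A14 uses sodium and chloride gradients to pump in neutral and cationic amino acids, and SLC43A2 lets large neutral amino acids through by facilitated diffusion. In ruminants the uterine lining releases amino acids, arginine and leucine among them, into the uterine lumen, where the conceptus takes them up before it attaches.

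Library totals ranged from 27025591 to 64364661 reads on genes, with the second highest at 41307147. Markers of epithelium, stroma, smooth muscle, endothelium and macrophages were counted in every library, with 0 markers of these 5 lists at 0 reads in any library, while up to 6 of 7 red blood cell markers were at 0. A pair of libraries stood apart. The ipsilateral day 5 library of heifer 8-1350 had a summed level of 6581 CPM (a gene's share of the reads of its library, scaled for library size and composition) over 10 smooth muscle markers, against 1232 to 1373 in the other 4 of its group. The ipsilateral day 16 library of heifer 5-137 lay at -7.08 on the first principal component of the 2000 most variable genes, where the other 4 of its group lay between -56.5 and -50.2. Results that rest on either are given with and without it. Of 10 endothelial markers 4 rose from day 7 to day 13 in each horn, and at most 1 of 11 markers of T and NK cells was called in any comparison. The share of reads on microRNA and tRNA genes was higher in the ipsilateral horn without overlap on days 5, 7 and 13. It was 0.0099% to 0.0122% against 0.0082% to 0.0094% on day 5, 0.012% to 0.0132% against 0.0084% to 0.0106% on day 7 and 0.0134% to 0.0167% against 0.0109% to 0.0133% on day 13. On day 16 the horns overlapped, with group means of 0.0152% and 0.0129%. The group means also rose with the day in both horns, so fits with this share cannot tell it apart from horn and day. Levels are CPM, given per library from lowest to highest or as mean ± SD (n = 5 libraries of separate heifers), fold changes are log2 ± SE, and a gene was called at a Benjamini-Hochberg adjusted p under 0.05 over all genes tested with edgeR's quasi-likelihood test.

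SLC7A4, the light chain SLC7A8 and the heavy chain SLC3A2 peaked on day 7. All 3 rose from day 5 to day 7 in both horns. SLC7A4 and SLC3A2 fell again by day 13 in both horns, and SLC7A8 did so in the contralateral horn. SLC7A1, the general arginine and lysine carrier, fell from day 5 to day 7 in both horns. SLC43A2 rose from day 7 to day 13 in the contralateral horn. From day 5 to day 7, 4 of the 9 members tested rose in the ipsilateral horn, where 15% of all genes tested did, and 2 fell, where 13.7% did. In the contralateral horn 4 of 9 rose and 1 fell, against 10.8% and 9.58% of all genes. Over all 4 days 7 of 9 members changed in the ipsilateral horn and 6 of 9 in the contralateral horn, and the shares among all genes were 54.9% and 55.3%, so change with the day was common in this tissue. Without 8-1350 the ipsilateral members changed were 6, with SLC43A2 gained and SLC7A2 and SLC6A14 lost. Steps that share a day share its libraries, and the horn comparisons use the same libraries again. The median change of the 9 members from day 5 to day 7 was 0.54 in the ipsilateral and 0.39 in the contralateral horn, where the medians of all genes tested were -0.02 and 0.00. SLC7A11 was too low for testing in the main fits. These are whole-tissue measurements, in which fewer cells of a type and less RNA per cell cannot be told apart.

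**Figure D1:**
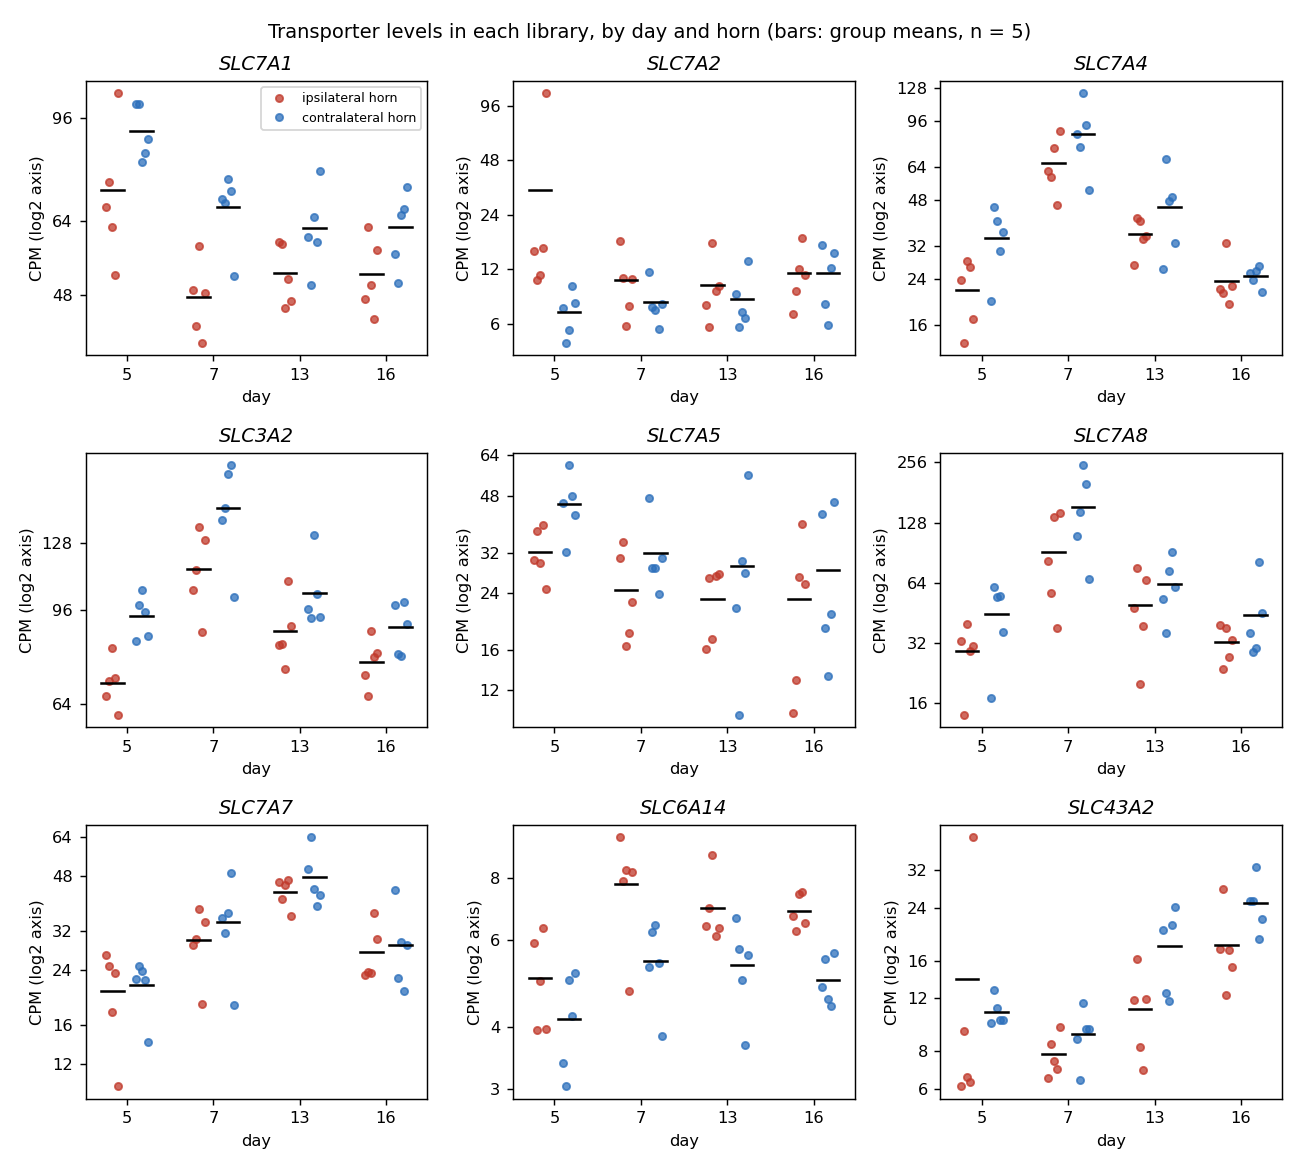
Level of 9 transporters in each of the 40 libraries, in CPM on a log2 axis, by day (x axis) and horn (red ipsilateral, blue contralateral), with bars at the means of 5 libraries. SLC7A4, SLC7A8 and SLC3A2 have their highest group means on day 7, at 85.8, 153.5 and 148 CPM in the contralateral horn, and a single ipsilateral day 5 library stands far above its group for SLC7A2 and SLC43A2.

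SLC7A1, the widely expressed carrier of arginine, lysine and ornithine, was highest on day 5. On day 5 the ipsilateral libraries held 51.8, 62.5, 67.7, 74.7 and 106 CPM and the contralateral ones 80.6, 83.7, 88.4, 101 and 101.5 CPM. On day 7 the values were 39.7, 42.5, 48.4, 48.8 and 58.03 CPM in the ipsilateral horn and 51.6, 68.9, 69.8, 72.2 and 75.6 CPM in the contralateral horn. The day 7 libraries lay mostly under those of day 5, with no overlap between these days in the contralateral horn and an overlap in the ipsilateral horn. The fall was -0.60 ± 0.16 (adjusted p = 0.00777) in the ipsilateral and -0.42 ± 0.12 (adjusted p = 0.0214) in the contralateral horn. Group means were 52.2 ± 6.30 and 52.1 ± 7.70 CPM in the ipsilateral horn on days 13 and 16, and 62.5 ± 10.2 and 62.5 ± 9.19 CPM in the contralateral horn. No later step was called for SLC7A1. Stroma markers fell over the same days, 8 of 12 in the ipsilateral and 4 of 12 in the contralateral horn, with summed levels of 28010 to 39530 CPM on day 5 and 13690 to 27540 CPM on day 7 in the ipsilateral horn. Smooth muscle markers fell as well, 8 of 10 in the ipsilateral and 4 of 10 in the contralateral horn. The part of stroma and muscle in the fall of SLC7A1 was not tested. The fall was not called with the small RNA share in the model, with adjusted p = 0.0882 in the ipsilateral and adjusted p = 0.0528 in the contralateral horn, nor, in the contralateral horn, with depth in the model (adjusted p = 0.0721) or without library 1-315 of day 5 (adjusted p = 0.0606).

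SLC7A4, the family member closest to the cationic carriers in sequence, for which no transport function is settled, had the clearest peak. On day 5 the ipsilateral libraries held 13.7, 16.9, 23.8, 26.6 and 28.03 CPM and the contralateral ones 19.8, 30.8, 36.3, 39.8 and 45.3 CPM. On day 7 they held 45.9, 58.8, 62.1, 75.7 and 88.3 CPM and 52.3, 76.3, 85.7, 92.6 and 122 CPM. Every day 7 library stood above every day 5 library of its horn. The rise was 1.61 ± 0.21 (adjusted p = 4.13e-05) in the ipsilateral horn, a 3.05-fold change, and 1.33 ± 0.25 (adjusted p = 0.00102) in the contralateral horn, a 2.51-fold change. On day 13 the ipsilateral libraries were down to 27.1, 34.1, 35.1, 39.99 and 41.01 CPM, all under those of day 7, and the contralateral ones to 26.2, 32.9, 47.6, 49.4 and 69.04 CPM, where 1 library of each day overlapped. This fall was -0.91 ± 0.21 (adjusted p = 0.00235) in the ipsilateral and -0.94 ± 0.24 (adjusted p = 0.00573) in the contralateral horn. On day 16 the values were 19.3, 21.2, 22, 22.5 and 33.04 CPM and 21.4, 23.9, 25.2, 25.8 and 26.9 CPM. The highest ipsilateral library of day 16 was that of heifer 5-137, which stood apart on the first principal component. The step from day 13 to day 16 was not called in either horn (-0.58 ± 0.21, adjusted p = 0.26, and -0.87 ± 0.25, adjusted p = 0.0859), and without 5-137 the ipsilateral value was -0.73 ± 0.21 (adjusted p = 0.113). The contralateral step was called by DESeq2 (adjusted p = 0.0217) and without library 4-1314 of day 13 (-1.02, adjusted p = 0.0386).

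SLC7A2, the other carrier of cationic amino acids, varied most through 1 library. The ipsilateral libraries of day 5 held 10.5, 11.2, 15.2, 15.8 and 113 CPM and the contralateral ones 4.71, 5.51, 7.32, 7.77 and 9.69 CPM. On day 7 they held 5.86, 7.48, 10.7, 10.8 and 17.3 CPM and 5.60, 7.14, 7.46, 7.67 and 11.6 CPM. The top value of day 5 belonged to heifer 8-1350, the library with the high smooth muscle markers, and the other 4 of its group overlapped with day 7. The fall from day 5 to day 7 in the ipsilateral horn was called with all libraries (-1.66 ± 0.57, adjusted p = 0.0344) and not without 8-1350 (-0.33 ± 0.32, adjusted p = 0.478). In the contralateral horn, where no library stood out, the same step was 0.18 ± 0.29 (adjusted p = 0.7). Later group means lay between 8.26 and 11.4 CPM, and no later step was called.

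The heavy chain SLC3A2, the partner that the SLC7 light chains need at the cell surface, followed the same course as SLC7A4 with a smaller range. On day 5 the ipsilateral libraries held 61.2, 66.3, 70.6, 71.6 and 81.5 CPM and the contralateral ones 83.99, 85.9, 95.1, 98.1 and 105 CPM. On day 7 they held 87.1, 105, 114, 129 and 137 CPM and 101.5, 141, 148.5, 172 and 178.5 CPM. In the ipsilateral horn the days did not overlap, and in the contralateral horn the lowest library of day 7 lay within the range of day 5. The rise was 0.71 ± 0.12 (adjusted p = 0.000396) in the ipsilateral and 0.67 ± 0.13 (adjusted p = 0.00155) in the contralateral horn. On day 13 the values were 74.4, 82.3, 83.02, 89.5 and 108 CPM and 92.6, 92.96, 96.3, 103 and 132 CPM, and on day 16 they were 66.2, 72.4, 78.5, 79.6 and 87.5 CPM and 78.8, 79.3, 90.3, 98.1 and 99.3 CPM. Both horns thus returned towards their day 5 range. The fall from day 7 to day 13 was -0.40 ± 0.12 (adjusted p = 0.0173) in the ipsilateral and -0.53 ± 0.13 (adjusted p = 0.00408) in the contralateral horn. In that step 0 of the 9 members tested rose and 2 fell in the ipsilateral horn, where 14.6% and 14% of all genes did, and 1 rose and 3 fell in the contralateral horn, where 16% and 17.5% did.

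SLC7A8, a light chain that exchanges neutral amino acids, is in other mammals best known from the basolateral side of kidney and gut epithelium. It had the widest span of group means among the members tested, 5.24-fold from lowest to highest. On day 5 the ipsilateral libraries held 14.04, 29.1, 30.96, 32.8 and 39.7 CPM and the contralateral ones 16.96, 36.2, 54.3, 54.8 and 61.2 CPM. On day 7 they held 37.9, 57.2, 82.3, 137 and 142 CPM and 66.6, 109, 144.5, 199 and 248 CPM. Contralateral libraries of the pair of days did not overlap, while the lowest ipsilateral library of day 7 lay under the highest of day 5. The rise was 1.65 ± 0.37 (adjusted p = 0.0031), a 3.13-fold change, in the ipsilateral horn and 1.79 ± 0.38 (adjusted p = 0.00293), a 3.45-fold change, in the contralateral horn. On day 13 the values were 20.01, 39.1, 47.7, 66.3 and 75.6 CPM and 35.97, 53.1, 61, 73.5 and 91.6 CPM, and on day 16 they were 23.8, 27.3, 33.3, 37.97 and 39.3 CPM and 29, 30.2, 35.95, 45.1 and 81.7 CPM. Libraries of 1 group were spread more widely than for SLC7A4 or SLC3A2 on day 7. The fall to day 13 was called in the contralateral horn (-1.29 ± 0.38, adjusted p = 0.0124) and not in the ipsilateral horn (-0.89 ± 0.36, adjusted p = 0.0725). The ipsilateral fall was called by DESeq2 (-0.92 ± 0.36, adjusted p = 0.0374), with depth in the model (-1.03 ± 0.36, adjusted p = 0.0392) and without ipsilateral library 5-117 of day 7 or 5-140 of day 13 (adjusted p = 0.0247 and 0.0399). A difference between horns in their change with the day was not called for any member, as given with the horn comparisons.

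Epithelial markers rose with these 3 transporters from day 5 to day 7 mainly in the ipsilateral horn. From day 5 to day 7, 10 of 16 epithelial markers rose and 2 fell in the ipsilateral horn, with a median change of 0.60, and 4 rose and 3 fell in the contralateral horn, with a median of 0.23. The summed epithelial level was 1149 to 1716 CPM on day 5 and 1627 to 2118 CPM on day 7 in the ipsilateral horn, and 1744 to 2304 CPM and 1732 to 2371 CPM in the contralateral horn. On day 13, when the transporters were down, the sums were 1744 to 2548 CPM and 1965 to 2754 CPM. From day 7 to day 13, 4 epithelial markers rose and 5 fell in the ipsilateral horn, and 4 rose and 4 fell in the contralateral horn. The part of epithelial cells in the rise and fall of the transporters was not tested.

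SLC7A5, the light chain that exchanges leucine and other large neutral amino acids and is a partner of SLC3A2 in growing cells, was not called in any step. Its group means were 32.2 ± 5.83 CPM on day 5 and 24.4 ± 7.91, 22.95 ± 5.77 and 23.01 ± 11.8 CPM on the following days in the ipsilateral horn, and in the contralateral horn they were 45.4 ± 9.95, 31.9 ± 8.97, 29 ± 16.8 and 28.2 ± 14.9 CPM. The step from day 5 to day 7 was -0.39 ± 0.30 (adjusted p = 0.349) and -0.50 ± 0.36 (adjusted p = 0.357). Libraries scattered widely on the late days: the contralateral libraries of day 13 held 10.1, 21.6, 27.6, 30.1 and 55.7 CPM and the ipsilateral libraries of day 16 10.2, 12.9, 25.6, 26.97 and 39.3 CPM. The 5 libraries of a group overlapped between neighbouring days in both horns, and no rise to day 7 like that of its heavy chain was called.

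SLC7A7, the light chain that passes cationic amino acids out of epithelial cells in exchange for neutral ones and sodium, had its highest group means on day 13. The ipsilateral libraries held 10.2, 17.6, 23.4, 24.7 and 26.8 CPM on day 5, 18.7, 28.8, 30.1, 34.1 and 37.8 CPM on day 7, 35.7, 40.4, 45, 45.8 and 46.7 CPM on day 13 and 23.2, 23.6, 23.6, 30.2 and 36.6 CPM on day 16. The contralateral libraries held 14.1, 22.4, 22.4, 23.9 and 24.7 CPM on day 5, 18.5, 31.6, 35.3, 36.5 and 49.2 CPM on day 7, 38.4, 41.6, 43.5, 50.6 and 63.9 CPM on day 13 and 20.5, 22.6, 28.9, 29.4 and 43.2 CPM on day 16. Every library of day 13 stood above every library of day 5 in its horn, and the means of day 7 lay between. Change over the 4 days was called in both horns (adjusted p = 0.00395 ipsilateral and 0.00211 contralateral). Of the single steps, that from day 5 to day 7 in the contralateral horn was called (0.68 ± 0.23, adjusted p = 0.0412), but not without 9 of the 10 libraries, each left out in turn. The other steps to day 13 were 0.54 ± 0.22 (adjusted p = 0.0678) and 0.50 ± 0.22 (adjusted p = 0.0935) in the ipsilateral horn and 0.47 ± 0.23 (adjusted p = 0.122) in the contralateral horn, and the step of days 7 to 13 in the ipsilateral horn was called once library 8-1350 was left out of the shared fit (0.47 ± 0.17, adjusted p = 0.0403). The ipsilateral step from day 5 to day 7 was called by DESeq2 (adjusted p = 0.0441) and without ipsilateral library 1-315 or 5-117 (adjusted p = 0.0379 and 0.0227), and the contralateral step from day 7 to day 13 without library 5-117 of day 7 (adjusted p = 0.0454). Without 8-1350, the lowest ipsilateral library of day 5, the ipsilateral step from day 5 to day 7 was 0.37 ± 0.18 (adjusted p = 0.137). SLC7A7 is also expressed by macrophages in human and mouse. Of 12 macrophage markers 0 rose in any step, where 10.8% to 16% of all genes rose in the steps up to day 13. Their summed level was 166 to 512 CPM on day 5 and 145 to 267 CPM on day 13 in the ipsilateral horn. In the contralateral horn it was 275 to 451 CPM and 217 to 295 CPM. The part of macrophages in the level of SLC7A7 was not tested.

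SLC7A11, the cystine and glutamate exchanger, was close to absent from the counts. All 40 libraries together held 158 reads, and 11 libraries held 0. In the ipsilateral libraries of day 5 there were 76 reads, 2 to 42 a library, and in the contralateral libraries of day 5 there were 11, 1 to 4 a library. The other 6 groups held 5 to 18 reads each. SLC7A11 did not pass the filter on low counts in the main fits, but did in some other settings. Its ipsilateral against contralateral difference averaged over days was then called with depth in the model (1.24 ± 0.50, adjusted p = 0.0498). It was also called without ipsilateral library 8-1350 (1.25 ± 0.51, adjusted p = 0.048) or 5-137 (1.31 ± 0.485, adjusted p = 0.0309). It was not called with the heifer as a block (1.34 ± 0.52, adjusted p = 0.0515). Nor was it with the small RNA share (2.29 ± 0.92, adjusted p = 0.112). With no filter, the ipsilateral against contralateral difference on day 5 was 2.31 ± 0.96 (adjusted p = 0.107) and the ipsilateral change from day 5 to day 7 was -1.96 ± 0.82 (adjusted p = 0.107), neither past the threshold.

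SLC6A14, which pumps both neutral and cationic amino acids with sodium and chloride, rose in the ipsilateral horn. On day 5 the ipsilateral libraries held 3.95, 3.96, 4.95, 5.91 and 6.34 CPM and the contralateral ones 3.04, 3.39, 4.22, 4.98 and 5.14 CPM. On day 7 they held 4.72, 7.88, 8.19, 8.31 and 9.65 CPM and 3.84, 5.28, 5.39, 6.22 and 6.41 CPM. The days overlapped in both horns, in the ipsilateral horn only through the lowest library of day 7. The step was called in the ipsilateral horn (0.63 ± 0.18, adjusted p = 0.0142) and not in the contralateral horn (0.39 ± 0.18, adjusted p = 0.142). With the small RNA share in the model the ipsilateral value was 0.47 ± 0.19 (adjusted p = 0.0662). On day 13 the values were 6.12, 6.35, 6.40, 6.94 and 8.89 CPM and 3.69, 4.97, 5.59, 5.75 and 6.65 CPM, and on day 16 they were 6.24, 6.49, 6.70, 7.43 and 7.47 CPM and 4.41, 4.56, 4.81, 5.48 and 5.64 CPM. No later step was called, and on day 16 every ipsilateral library stood above every contralateral one.

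SLC43A2, the facilitated carrier of large neutral amino acids, had its highest group mean on day 16 in both horns. On day 7 the ipsilateral libraries held 6.54, 6.99, 7.40, 8.47 and 9.62 CPM and the contralateral ones 6.42, 8.77, 9.49, 9.52 and 11.6 CPM. On day 13 they held 6.94, 8.26, 11.9, 11.95 and 16.2 CPM and 11.8, 12.5, 20.3, 21.1 and 24.1 CPM, and on day 16 they held 12.3, 15.3, 17.4, 17.5 and 27.8 CPM and 18.9, 21.97, 25.3, 25.3 and 32.8 CPM. In the contralateral horn every library of day 13 stood above every library of day 7, and in both horns every library of day 16 stood above every library of day 7. The step from day 7 to day 13 was 0.96 ± 0.20 (adjusted p = 0.000849) in the contralateral horn, a 1.95-fold change, and 0.48 ± 0.44 (adjusted p = 0.446) in the ipsilateral horn. Once library 8-1350 of day 5 was left out of the shared fit, the ipsilateral step was 0.46 ± 0.23 and still not called (adjusted p = 0.143). The ipsilateral step was called with the small RNA share in the model (1.33 ± 0.43, adjusted p = 0.0294), and so was the step in counts summed over both horns (0.77 ± 0.26, adjusted p = 0.0202). Of the ipsilateral day 5 libraries, at 6.11, 6.31, 6.59, 9.31 and 41.3 CPM, the highest was again that of heifer 8-1350. With it the change over the 4 days in the ipsilateral horn was not called (adjusted p = 0.117) and without it the change was called (adjusted p = 0.000431). In the contralateral horn, where day 5 held 9.95, 10.2, 10.2, 11.1 and 12.8 CPM, it was called (adjusted p = 1.25e-05).

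**Figure D2:**
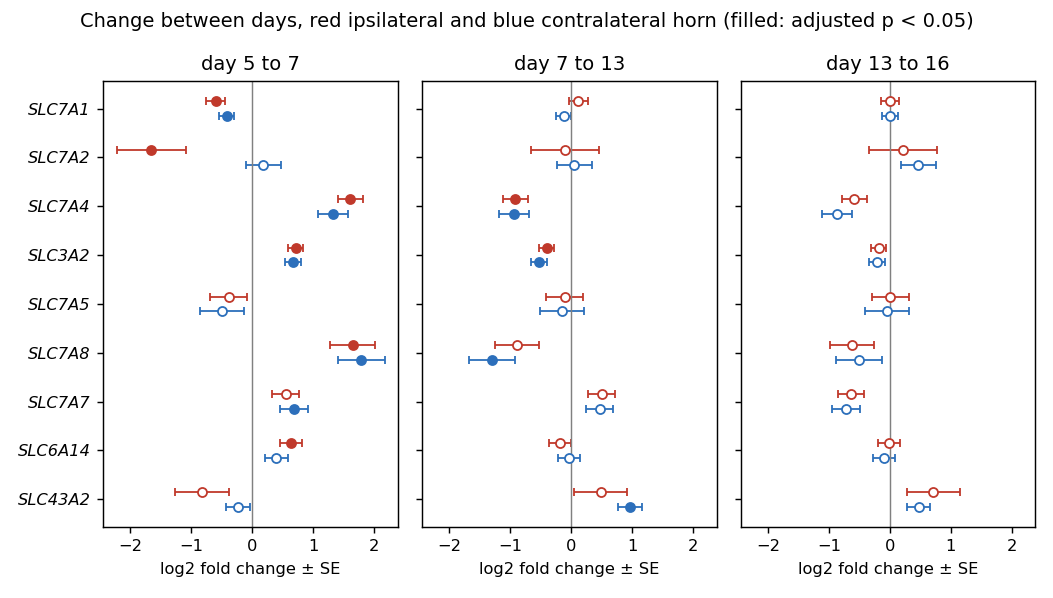
Change of 9 transporters in log2 fold change ± SE (x axis) for the steps from day 5 to 7, 7 to 13 and 13 to 16, red for the ipsilateral and blue for the contralateral horn, filled where the adjusted p was under 0.05. SLC7A4, SLC3A2 and SLC7A8 lie to the right in the first step and to the left in the second in both horns, and no point is filled in the last step.

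From day 13 to day 16 no member was called in either horn, where 0.446% of all genes tested were called in the ipsilateral and 1.68% in the contralateral horn. At an unadjusted p under 0.05 there were 2 members in the ipsilateral and 3 in the contralateral horn. DESeq2 called 0 members in the ipsilateral horn and 1 in the contralateral horn. When the counts of both horns were summed per heifer tag, 2 members were called in this step and 5 in the step from day 7 to day 13.

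Averaged over the 4 days, 6 of the 9 members tested differed between the horns. SLC6A14 and SLC7A2 were higher in the ipsilateral horn, against 19.6% of all genes tested, and SLC7A1, SLC7A4, SLC7A8 and SLC3A2 were lower there, against 18.6%. SLC3A2 was lower by 0.29 ± 0.06 on the log2 scale (adjusted p = 0.000491) and SLC7A1 by 0.32 ± 0.07 on the log2 scale (adjusted p = 0.000585). SLC7A4 stood at -0.33 ± 0.12 (adjusted p = 0.0205) and SLC7A8 at -0.51 ± 0.19 (adjusted p = 0.0311). SLC7A8 was no longer called with the heifer as a block (-0.52 ± 0.23, adjusted p = 0.0854) or without any of 4 contralateral libraries (3-175 of day 5, 4-064 of day 7, 6-203 of day 13 and 7-107 of day 16, adjusted p up to 0.0679). SLC6A14 was higher by 0.43 ± 0.09 (adjusted p = 0.000206) and SLC7A2 by 0.75 ± 0.23 (adjusted p = 0.00934). Under limma-voom SLC7A2 was not called (0.55 ± 0.25, adjusted p = 0.0907). Without 8-1350 the value of SLC7A2 was 0.41 ± 0.16 (adjusted p = 0.0335), and SLC43A2, not called with all libraries (-0.23 ± 0.17, adjusted p = 0.32), was lower in the ipsilateral horn at -0.48 ± 0.11 (adjusted p = 0.000663). SLC7A11, not tested in the main fit, passed the filter without 8-1350 and was called as higher in the ipsilateral horn (1.25 ± 0.51, adjusted p = 0.048). SLC7A5 (-0.35 ± 0.17, adjusted p = 0.113) and SLC7A7 (-0.10 ± 0.12, adjusted p = 0.552) were not called, but SLC7A5 was without ipsilateral library 7-107 of day 16 or contralateral library 5-140 of day 13 (adjusted p = 0.049 and 0.0443).

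Markers of other tissue parts and the small RNA share moved with the horn as well. On average over days 9 of 16 epithelial and 7 of 12 stroma markers were lower in the ipsilateral horn and 0 higher, with medians of -0.33 and -0.29. The part of these cells in the horn differences was not tested. With the small RNA share in the model 3 members were called in place of 6: SLC3A2 (-0.37 ± 0.11, adjusted p = 0.0315), SLC7A4 (-0.68 ± 0.19, adjusted p = 0.0181) and SLC7A2 (1.23 ± 0.38, adjusted p = 0.0355). SLC7A1 was then at -0.12 ± 0.12 (adjusted p = 0.601), SLC6A14 at 0.21 ± 0.15 (adjusted p = 0.451) and SLC7A8 at -0.53 ± 0.34 (adjusted p = 0.362).

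By day, the horn differences that were called fell on days 5 and 7. On day 5 SLC7A2 was higher in the ipsilateral horn (2.26 ± 0.48, adjusted p = 0.000669), where 12.3% of all genes were higher, and no ipsilateral library overlapped with a contralateral one. Without 8-1350 the difference was 0.93 ± 0.33 (adjusted p = 0.0364), so that its size rested on that library and its call did not, and with the heifer as a block it was 1.5 ± 0.38 (adjusted p = 0.00812). SLC3A2 (-0.39 ± 0.13, adjusted p = 0.0261) and SLC7A4 (-0.63 ± 0.23, adjusted p = 0.0466) were lower, where 10.4% of all genes were, and the horns did not overlap for SLC3A2. The count on day 5 was 1 without ipsilateral library 1-315 or contralateral library 3-175 or 4-184, and with the heifer as a block SLC7A4 was not called (-0.65 ± 0.24, adjusted p = 0.0635). Without 8-1350 neither SLC3A2 (-0.34 ± 0.14, adjusted p = 0.0704) nor SLC7A4 (-0.55 ± 0.25, adjusted p = 0.113) was called on day 5, while SLC7A1 was (-0.48 ± 0.13, adjusted p = 0.00913). SLC3A2 on day 5 was not called with the small RNA share in the model (-0.44 ± 0.16, adjusted p = 0.0801), nor SLC7A4 in a fit of the libraries of the day alone (-0.59 ± 0.25, adjusted p = 0.14). With all libraries SLC7A1 on day 5 was at -0.30 ± 0.14 (adjusted p = 0.13).

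On day 7 SLC6A14 was higher in the ipsilateral horn (0.55 ± 0.18, adjusted p = 0.0403), where 7.52% of all genes were higher, and SLC7A1 was lower (-0.47 ± 0.14, adjusted p = 0.0261), where 4.2% were. Both calls depended on single libraries: SLC6A14 was lost without 7 and SLC7A1 without 5 of the 10 libraries of the day, and the count was 0 without ipsilateral library 2-371 or contralateral library 2-1337 or 5-117. With the heifer as a block 1 member was called on day 7, SLC7A1 (-0.49 ± 0.15, adjusted p = 0.0379), and SLC6A14 was not (0.51 ± 0.19, adjusted p = 0.0988). SLC3A2, not called on day 7 (-0.34 ± 0.13, adjusted p = 0.0827), was called by DESeq2 (adjusted p = 0.0417) and without ipsilateral library 4-064 or contralateral library 6-338 (adjusted p = 0.042 and 0.0105). On days 13 and 16 no member was called in the edgeR test, where 5.72% and 4.53% of all genes were, and 1 member on each day had an unadjusted p under 0.05. DESeq2 also called 0 members on both days. A change of the horn difference with the day was called for 0 members and for 0% of all genes, with 572 genes and 1 member, SLC7A2, at an unadjusted p under 0.05, and SLC7A2 was not among them without 8-1350. Calls on 1 day and not on another are thus not shown to differ between days.

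**Figure D3:**
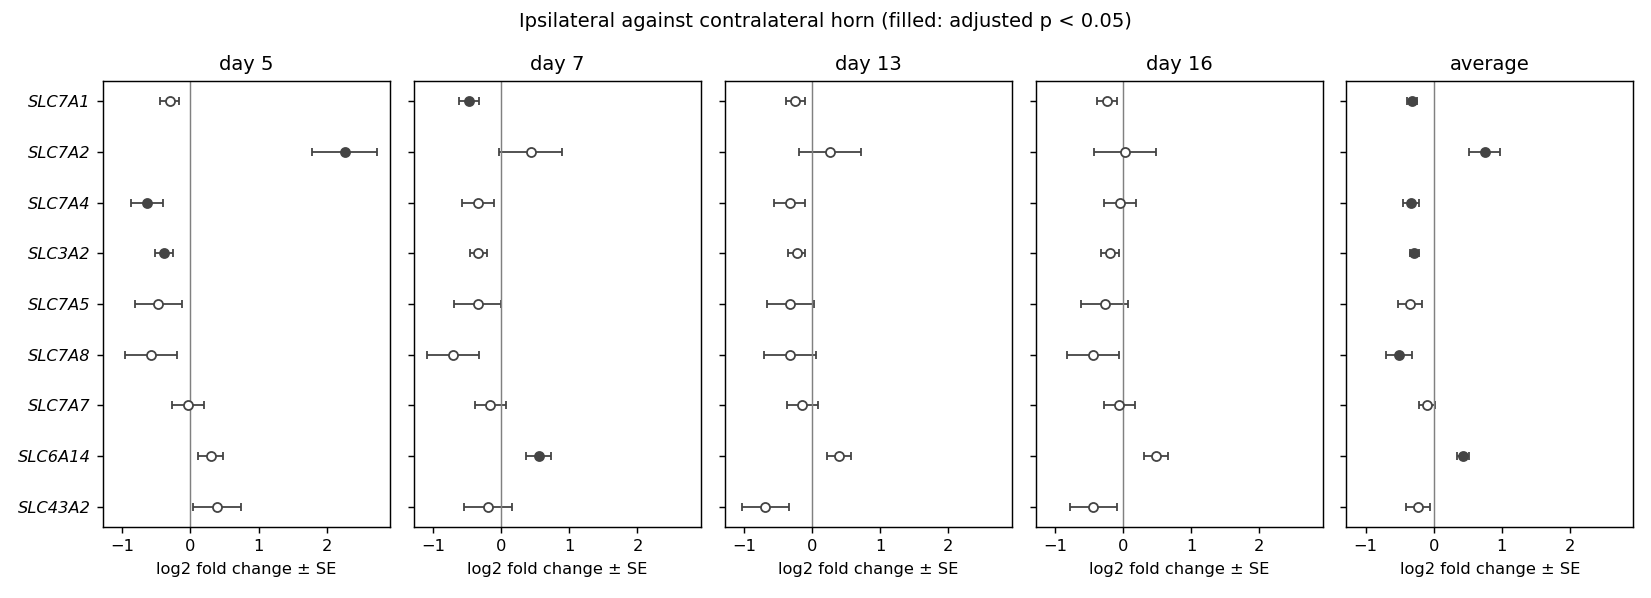
Ipsilateral minus contralateral difference of 9 transporters in log2 fold change ± SE (x axis) on each day and averaged over the 4 days, filled where the adjusted p was under 0.05. SLC6A14 lies to the right of 0 and SLC7A1 and SLC3A2 to the left of it on all 4 days, and SLC7A2 is far to the right on day 5, at 2.26 with library 8-1350 included.

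In library 8-1350 SLC7A2 reached 113 CPM and SLC43A2 41.3 CPM, while the other 4 ipsilateral libraries of day 5 held 10.5 to 15.8 CPM and 6.11 to 9.31 CPM. All 10 smooth muscle markers were higher there than in the other 4, from 1.38-fold their mean for SMTN to 8.95-fold for ACTA2, the smooth muscle actin, and 6.49-fold for MYH11, the smooth muscle myosin. SLC7A1, at 106 CPM, was the third member above the rest of its group, where the highest of the other 4 held 74.7 CPM. The smooth muscle sum was lower on day 7 than on day 5 in both horns also without this library, going from 1232 to 1373 CPM in the other 4 to 627 to 1014 CPM on day 7 in the ipsilateral horn and from 1020 to 1740 CPM to 613 to 1022 CPM in the contralateral horn. The part of muscle in the level of SLC7A2 and SLC43A2 was not tested. On day 16, when SLC43A2 had its highest group means, the muscle sums were 748 to 1397 CPM in the ipsilateral and 705 to 1793 CPM in the contralateral horn.

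**Figure D4:**
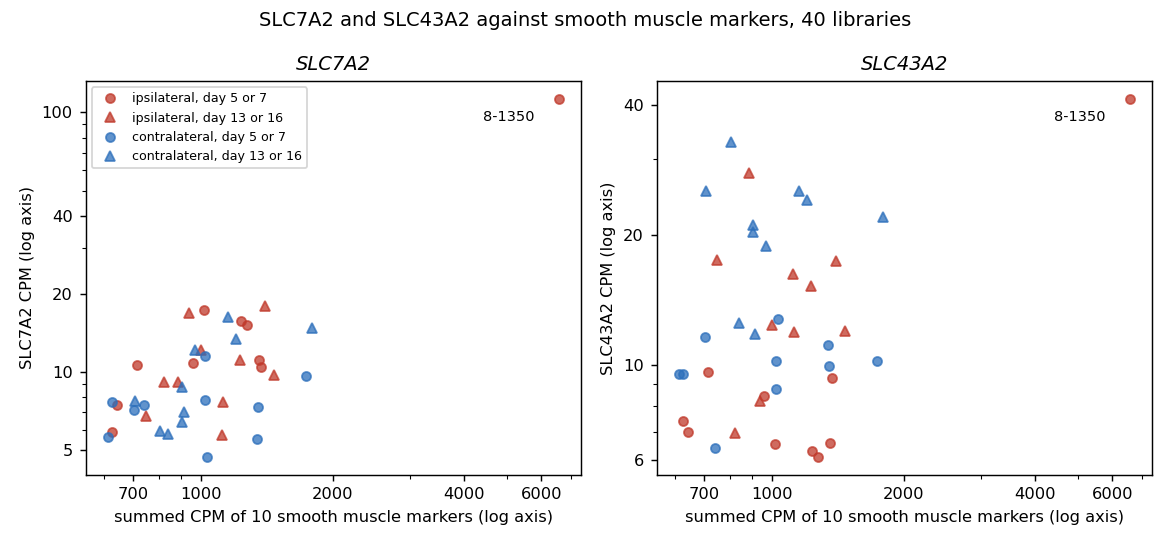
Level of SLC7A2 (left) and SLC43A2 (right) in CPM against the summed CPM of 10 smooth muscle markers in the 40 libraries, on log axes, by horn (colour) and early or late days (shape). Library 8-1350 lies alone at the upper right, at 6581 CPM of muscle markers, and the other libraries lie at 1793 CPM or less.

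Across the 40 libraries SLC7A4, SLC7A8 and SLC3A2 varied together, with Pearson r of log2 CPM of 0.83 for SLC7A4 and SLC7A8, 0.85 for SLC7A4 and SLC3A2 and 0.87 for SLC7A8 and SLC3A2. The only other pair of members beyond 0.5 in size was SLC7A1 and SLC6A14, at -0.63. These values describe libraries that share heifers, days and horns and are given with no test. Among 13766 genes searched, those most like SLC7A4 were ITGB4 (0.95), an integrin of epithelial attachment, and PRPSAP1 (0.95). SLC7A8 was most like SLC30A3 (0.92) and FOLR3 (0.90), and SLC3A2 most like SLC10A3 (0.92) and ZBTB42 (0.90). SLC7A1 was most like EIF4H (0.87) and EIF3G (0.86), both translation initiation factors. SLC7A2 was most like KIDINS220 (0.88) and PRUNE2 (0.86), and SLC43A2 most like GPR125 (0.85) and CCNI (0.85). SLC7A7 followed MAP4K2 (0.84) and ABHD6 (0.81), SLC7A5 followed SEMA6C (0.84) and the gene listed as LOC538493-2 (0.84), and SLC6A14 had the weakest likeness, to LOC100335357 and FAM214A (both 0.74).

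Counts in lists of genes that use, sense or carry the same amino acids are read against the shares of all genes tested. These were 15% higher and 13.7% lower (ipsilateral) and 10.8% and 9.58% (contralateral) from day 5 to day 7. They were 14.6% and 14% (ipsilateral) and 16% and 17.5% (contralateral) from day 7 to day 13, and 19.6% and 18.6% between the horns on average. Shares near these are not results about a list, and no list was tested as a set. At most 4 called genes are named per list and comparison. A gene named for only 1 horn may therefore also have been called in the other where 4 are named there. Arginine and ornithine feed polyamine synthesis, whose first step is ornithine decarboxylase (ODC1). ODC1 had a mean of 383 ± 138 CPM on day 5, 1056 ± 214 on day 7 and 75.04 ± 9.99 on day 13 in the ipsilateral horn, and of 543 ± 134, 1174 ± 212.5 and 86.2 ± 18.6 CPM in the contralateral horn. Its fall from day 7 to day 13 was -3.83 ± 0.39 (adjusted p = 1.96e-06) in the ipsilateral and -3.78 ± 0.20 (adjusted p = 1.14e-09) in the contralateral horn. Of 21 genes of arginine and polyamine metabolism tested, 0 rose and 3 fell in that step in the ipsilateral horn (ODC1, ARG2 and SAT1) and 0 rose and 8 fell in the contralateral horn. SAT1, the enzyme that marks polyamines for breakdown, fell by 0.72 and 0.95 on the log2 scale. SMS, which makes spermine, and AMD1, which supplies its building block, fell in the contralateral horn by 0.96 and 0.39 on the log2 scale. From day 5 to day 7, 7 of the 21 rose and 2 fell in the ipsilateral horn, and 5 rose and 2 fell in the contralateral horn. Chosen after their values were seen, ODC1 rose in that step by 1.47 ± 0.36 and 1.12 ± 0.18 (ipsilateral and contralateral), SAT1 by 1.88 ± 0.24 and 1.68 ± 0.21, and ASS1, an enzyme of arginine synthesis, fell by 1.33 and 1.42 on the log2 scale. Averaged over days 0 of the 21 were higher and 5 lower in the ipsilateral horn, OAZ2 (-0.21), OAZ1 (-0.17), SRM (-0.32) and ASS1 (-0.32) among them.

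Other transporters of the same amino acids, of which 11 were tested, are given next. SLC6A20, a sodium-coupled carrier of proline in other mammals, fell from day 7 to day 13 by 2.84 ± 0.43 on the log2 scale (adjusted p = 7.84e-05) in the ipsilateral and 3.05 ± 0.45 on the log2 scale (adjusted p = 3.22e-05) in the contralateral horn, from means of 140 ± 85.9 and 137 ± 78.1 CPM. SLC43A3, a relative of SLC43A2 that carries purine bases, fell by 1.25 and 1.19 on the log2 scale. SLC3A1, the heavy chain of the cystine carrier of kidney, rose by 0.36 ± 0.10 in the ipsilateral horn. The counts in that step, near the shares of all genes in the ipsilateral horn, were 1 up and 2 down in the ipsilateral and 0 up and 2 down in the contralateral horn, and from day 5 to day 7 they were 1 up and 1 down, and 2 up and 0 down. Averaged over days 3 of the 11 were higher in the ipsilateral horn and 0 lower: SLC36A4 (0.43 ± 0.07), SLC3A1 (0.37 ± 0.07) and SLC16A10 (0.61 ± 0.16), a carrier of aromatic amino acids.

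Amino acid sensing by mTORC1, the kinase complex that couples amino acid supply to protein synthesis, was represented by 23 genes. From day 5 to day 7, 8 of 23 rose in the ipsilateral horn and 9 in the contralateral horn, and 0 fell. From day 7 to day 13, 3 rose and 7 fell in the ipsilateral horn, and 3 rose and 9 fell in the contralateral horn, where 14.6% and 14%, and 16% and 17.5%, of all genes did. LAMTOR2 (-0.60 and -0.72 in the ipsilateral and contralateral horn) and LAMTOR5 (-0.44 and -0.55), subunits of the complex that anchors mTORC1 at the lysosome, and the kinase MTOR itself (-0.39 and -0.50) fell, as did LAMTOR1 in the ipsilateral horn (-0.47), while SESN1, a sensor that restrains it, rose in the contralateral horn (0.58 ± 0.10). Averaged over days 2 were higher and 10 lower in the ipsilateral horn, with RPTOR (-0.28), LAMTOR1 (-0.27) and NPRL3 (-0.21) lower and SESN3 (0.48) higher.

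Genes of the ATF4 response, which cells raise when amino acids run short and which includes the enzymes of serine synthesis, went both ways. From day 5 to day 7, 4 of 21 rose and 2 fell in the ipsilateral horn, and 5 rose and 2 fell in the contralateral horn. From day 7 to day 13, 4 rose and 8 fell in the ipsilateral horn, and 5 rose and 8 fell in the contralateral horn. PSPH, the last enzyme of serine synthesis, rose by 3.41 ± 0.32 (adjusted p = 1.02e-06) and 4.01 ± 0.36 (adjusted p = 1.39e-07), from means of 7.08 and 6.69 CPM to 76.0 and 108 CPM. PSAT1, the enzyme before it, fell in the contralateral horn by 2.33 ± 0.26 on the log2 scale (adjusted p = 1.66e-06). MTHFD2 and SHMT2, mitochondrial enzymes of the folate cycle, fell in both horns, MTHFD2 by 1.65 and 1.71 and SHMT2 by 0.66 and 0.79 on the log2 scale, and DDIT4 fell by 1.11 in the ipsilateral horn. Averaged over days 3 were higher and 4 lower in the ipsilateral horn, with EIF2S1 (0.23) and EIF2AK4 (0.20) higher and SHMT2 (-0.22) and EIF4EBP1 (-0.34) lower.

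Cystine imported by SLC7A11 is used to make glutathione, so genes of glutathione metabolism and of its regulator NRF2 were described beside it. Of 16, 4 rose and 0 fell from day 5 to day 7 in the ipsilateral horn, and 2 rose and 0 fell in the contralateral horn. From day 7 to day 13, 0 rose and 3 fell in the ipsilateral horn, and 1 rose and 3 fell in the contralateral horn, close to the 14% and 17.5% of all genes that fell. TXNRD1, a thioredoxin reductase, fell by 1.60 and 1.75, SRXN1 by 0.87 and 0.98 and the lipid peroxidase GPX4 by 0.79 and 0.92 on the log2 scale in the ipsilateral and contralateral horn, and HMOX1 rose by 0.77 ± 0.18 in the contralateral horn. Averaged over days 3 were higher and 5 lower in the ipsilateral horn, with CHAC2 (0.41) and GCLM (0.29) higher and KEAP1 (-0.24) and GPX1 (-0.28) lower. From day 13 to day 16, 0.446% of all genes were called in the ipsilateral and 1.68% in the contralateral horn. In the ipsilateral horn 1 of 21 arginine and polyamine genes and 1 of 21 ATF4 genes fell. In the contralateral horn 1 of 21 arginine and polyamine genes, 3 of 21 ATF4 genes and 1 of 16 glutathione and NRF2 genes fell. No other gene of the 5 lists was called in this step.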

How the data were processed

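Poly(A) RNA of whole endometrium was sequenced in 40 libraries. The authors deposited raw read counts per gene. Reads were checked with FastQC, aligned with HISAT2 to UMD3.1 and counted with featureCounts, per the submitters' processing notes; versions are not given in the sources used here. The mitochondrial row (0.0812% to 0.578% of reads) and a last row of sample titles were left out. Counts were fitted with edgeR 4.0.16 (R 4.3.3, limma 3.58.1): filterByExpr, TMM scaling, quasi-likelihood test and Benjamini-Hochberg adjustment over all genes tested (19733 for ipsilateral days, 19559 for contralateral days, 20356 for horns). Day steps were fitted in each horn, and horns in all 8 groups. Per the labels, both horns came from the same heifer, tagged alike. The deviations of same-tagged libraries from their group means correlated above 0.1 for 5 of 20 tags (-0.259 to 0.669, median -0.0468). For most tags the 2 libraries were thus not alike beyond their groups, so the fits carry no heifer block, and the block is an alternative. Where libraries are blocked or summed by heifer, heifer means the tag in the labels. CPM values are TMM-scaled and were computed here. The members and lists were chosen with earlier results of these data known. Named list genes are up to 4 per list with the smallest adjusted p among those called from day 7 to 13 and between horns averaged over days. The 2 genes most like each member by Pearson r of log2 CPM are named. Marker lists for 7 cell types were read beside the results. The code was tested on simulated data. Alternatives were DESeq2 1.42.0, limma-voom, other size factors, no filter, depth or small RNA share as covariate, horns summed per heifer and each library left out. Leaving out 8-1350 where day 5 is not compared was chosen after the data were seen. Library totals of 27025591 to 64364661 reads set the counting precision. For day steps within a horn, separate heifers are the replicates, and p-values measure the spread between them. Horn comparisons without the block take the 2 libraries of a heifer as separate units, so their p-values measure the spread between libraries.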

Additional observations from a re-analysis of the deposited data

Results flagged for a closer look

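In 7 of 80 groups of 5 libraries, 1 library lay far from the other 4 for a transporter, with a gap of more than 0.71 of the whole range, and chance gives about 1 in 20 groups. SLC7A2 held 113 CPM and SLC43A2 41.3 CPM in ipsilateral day 5 library 8-1350, where the other 4 held 10.5 to 15.8 CPM and 6.11 to 9.31 CPM. SLC7A7 was lowest in the contralateral day 5 library of the same heifer, at 14.1 CPM against 22.4 to 24.7 CPM. SLC7A4 held 33.04 CPM in ipsilateral day 16 library 5-137, against 19.3 to 22.5 CPM. SLC3A2 held 132 CPM in contralateral day 13 library 5-167, against 92.6 to 103 CPM. SLC7A1 held 51.6 CPM in contralateral day 7 library 6-338, against 68.9 to 75.6 CPM. SLC7A11 held 0.113 CPM in contralateral day 13 library 8-275, where the others held 0 to 0.0278 CPM, a matter of a few reads.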

How the results depend on the processing

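Of 28 called differences of a transporter, 20 were called without each library in turn, 15 under every other setting and 15 under all of both, and 0 changed direction. The 15 are SLC3A2, SLC7A4 and SLC7A8 from day 5 to 7 in both horns, SLC3A2 and SLC7A4 from day 7 to 13 in both horns, SLC7A8 and SLC43A2 from day 7 to 13 in the contralateral horn, SLC7A2 between horns on day 5, and SLC3A2 and SLC7A4 between horns on average. With the small RNA share as covariate the members called were 3 in place of 6 from day 5 to 7 ipsilateral, 0 in place of 2 between horns on day 7 and 3 in place of 6 on average, and the uncalled average differences of SLC43A2 (0.45, adjusted p = 0.292) and SLC7A5 (0.067, adjusted p = 0.942) changed direction. Over all genes the calls in these comparisons were 5228 in place of 5675, 237 in place of 2386 and 2079 in place of 7768. With depth as covariate the members called were 4 in place of 7 over all days ipsilateral and 3 in place of 5 from day 5 to 7 contralateral. SLC7A11 then passed the filter and was called between horns on average (adjusted p = 0.0498). Horns summed per heifer gave 5 in place of 2 from day 7 to 13 ipsilateral, and 2 in place of 0 from day 13 to 16 against either horn. DESeq2 gave 1 in place of 0 from day 13 to 16 contralateral. Between horns on day 7, limma-voom, no filter and the libraries of the day alone each gave 1 in place of 2. With the heifer as replicate block the counts were 1 in place of 2 on day 7, 2 in place of 3 on day 5 and 5 in place of 6 on average. Leaving out each library gave 3 to 5 members from day 5 to 7 contralateral, 3 without contralateral library 1-315, 0 to 1 from day 13 to 16 contralateral, 1 without day 13 library 4-1314, 1 to 4 between horns on day 5 and 0 to 2 on day 7. The causes of these shifts were not tested. SLC7A11, at 0 to 42 reads a library, is limited by depth.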
